A study of Rattus norvegicus with 71 samples.

Results

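The neurotrophins and their receptors were described here by 6 genes, Bdnf, Ntf3, Ntrk2, Ntrk3, Ngfr and Sort1, chosen by symbol from the 17494 genes of the count table, and all 6 were followed in 71 neonatal rat brains. The animals were wild-type Sprague-Dawley rats at postnatal day 2, 36 female and 35 male, from 27 litters. Before mating, dams received peptides of several brain antigens in Freund's adjuvant, and each pattern is named for its antigens, so that the offspring were exposed in gestation to maternal autoantibodies (MARA-AB). Dams of the saline controls received adjuvant with saline, so adjuvant was common to every litter. The exposure was made in the dam, and littermates share it. The patterns were CRMP1+CRMP2 (8 animals, 4 litters), LDHA/B+CRMP1+STIP1 (25 animals, 9 litters), CRMP1+GDA (6 animals, 3 litters) and STIP1+NSE (8 animals, 4 litters), with 24 saline controls from 7 litters. Of these, 12 controls and 16 animals of LDHA/B+CRMP1+STIP1 formed batch 1. The remaining 12 controls, 9 animals of LDHA/B+CRMP1+STIP1 and the other 3 patterns formed batch 2, which was processed and sequenced separately.

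Neurotrophins are secreted growth factors that support the survival, growth and synapses of neurons. BDNF, the product of Bdnf, binds the receptor tyrosine kinase TrkB, encoded by Ntrk2, and NT-3, the product of Ntf3, binds TrkC, encoded by Ntrk3. The p75 receptor, encoded by Ngfr, binds all mature neurotrophins and, together with sortilin, encoded by Sort1, binds their uncleaved precursors. Trk receptors signal through adaptors to the Ras-MAPK and PI3K-Akt kinases. Ntrk2 and Ntrk3 also give truncated forms without a kinase domain, and the counts pool all forms of a gene.

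Each library came from a coronal slice that held the hippocampal formation with neighbouring cortical and subcortical structures. Libraries held 24880182 to 36234952 counts with a median of 28439195. Levels are given in CPM, counts scaled to the library total after that total was adjusted by its TMM factor. Before this adjustment 1 CPM was 24.9 to 36.2 counts. The batches differed in the tissue their slices contained. The summed CPM of 9 thalamus markers was 168 to 291 in batch 1 and 282 to 1440 in batch 2, and 42 of 43 animals of batch 2 lay above all of batch 1. The summed level of cortical and hippocampal projection neuron markers had a median of 1757 CPM in batch 1 and 1118 CPM in batch 2. In bulk tissue, fewer cells of a type and less RNA per cell cannot be told apart.

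Bdnf is transcribed from several starts, each with its own regulation, and the gene counts pool them. RefSeq start regions of the build GRCr8 were matched for Bdnf (6 regions), Ntf3 (3) and Sort1 (1), with none matched for Ntrk2, Ntrk3 and Ngfr. The bases before 1 Bdnf start are shown because they hold a match to a cAMP response element-like word, in capitals, and because Creb1, which encodes a factor that binds such elements, was measured in these brains. They lie on the plus strand at chr3:116637758-116637857.
Bdnf: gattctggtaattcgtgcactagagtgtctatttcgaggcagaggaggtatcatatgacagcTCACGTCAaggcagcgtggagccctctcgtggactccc
The word TCACGTCA, searched on both strands, begins 38 bases before the start and was found in 1 of the 6 Bdnf regions. It occurred in 134 of 33469 start regions of all genes (0.4%). The palindromic word TGACGTCA occurred in 612 regions (1.83%), in none of the regions of Bdnf, Ntf3 or Sort1. The words were chosen after the sequences had been read, and a match is a description of letters, not a measured site.

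Ntrk2 and Sort1 were the most abundant of the 6 genes per length, and Bdnf the least. On the RPKM scale, which divides CPM by exon length in kilobases, Ntrk2 was at 46.3 ± 4.63, Sort1 at 41.03 ± 3.38, Ntrk3 at 12.2 ± 2.26, Ntf3 at 6.40 ± 1.84, Ngfr at 4.25 ± 1.54 and Bdnf at 1.03 ± 0.66 (mean ± SD, n = 71). The order held in single animals with exceptions at its closest steps. The RPKM of Ntrk2 exceeded that of Sort1 in 67 of 71 animals, with a median ratio of 1.14. Sort1 exceeded Ntrk3 in 71 of 71, and Ntrk3 exceeded Ntf3 in 69 of 71. Ntf3 exceeded Ngfr in 59 of 71 animals, with ratios from 0.341 to 9.12, so these neighbours overlapped. Ngfr exceeded Bdnf in 71 of 71.

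The genes also differed in how much they varied. Over the 71 animals, the coefficient of variation of the level was 63.9% for Bdnf, 36.1% for Ngfr, 28.8% for Ntf3, 18.4% for Ntrk3, 10.002% for Ntrk2 and 8.25% for Sort1. The highest Bdnf level was 23.1 times the lowest, and the highest Sort1 level 1.38 times the lowest. Over both batches together, the ligands and the p75 receptor therefore spanned wider ranges than the Trk receptors and sortilin. They also had the lowest counts per animal, 18 to 416 for Bdnf, 76 to 882 for Ngfr and 87 to 551 for Ntf3. Ntrk3 had 692 to 1567 counts, and Ntrk2 and Sort1 had more. The part of counting noise in these ranges was not tested. Within batches the coefficient for Bdnf was lower, 40.6% in batch 1 and 32.8% in batch 2. Ntf3 and Ntrk3 were at 36.6% and 14.3% in batch 1 but close in batch 2, at 23.2% and 20.8%. In batch 2 their highest levels were 2.66 and 2.67 times their lowest.

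**Figure D1:**
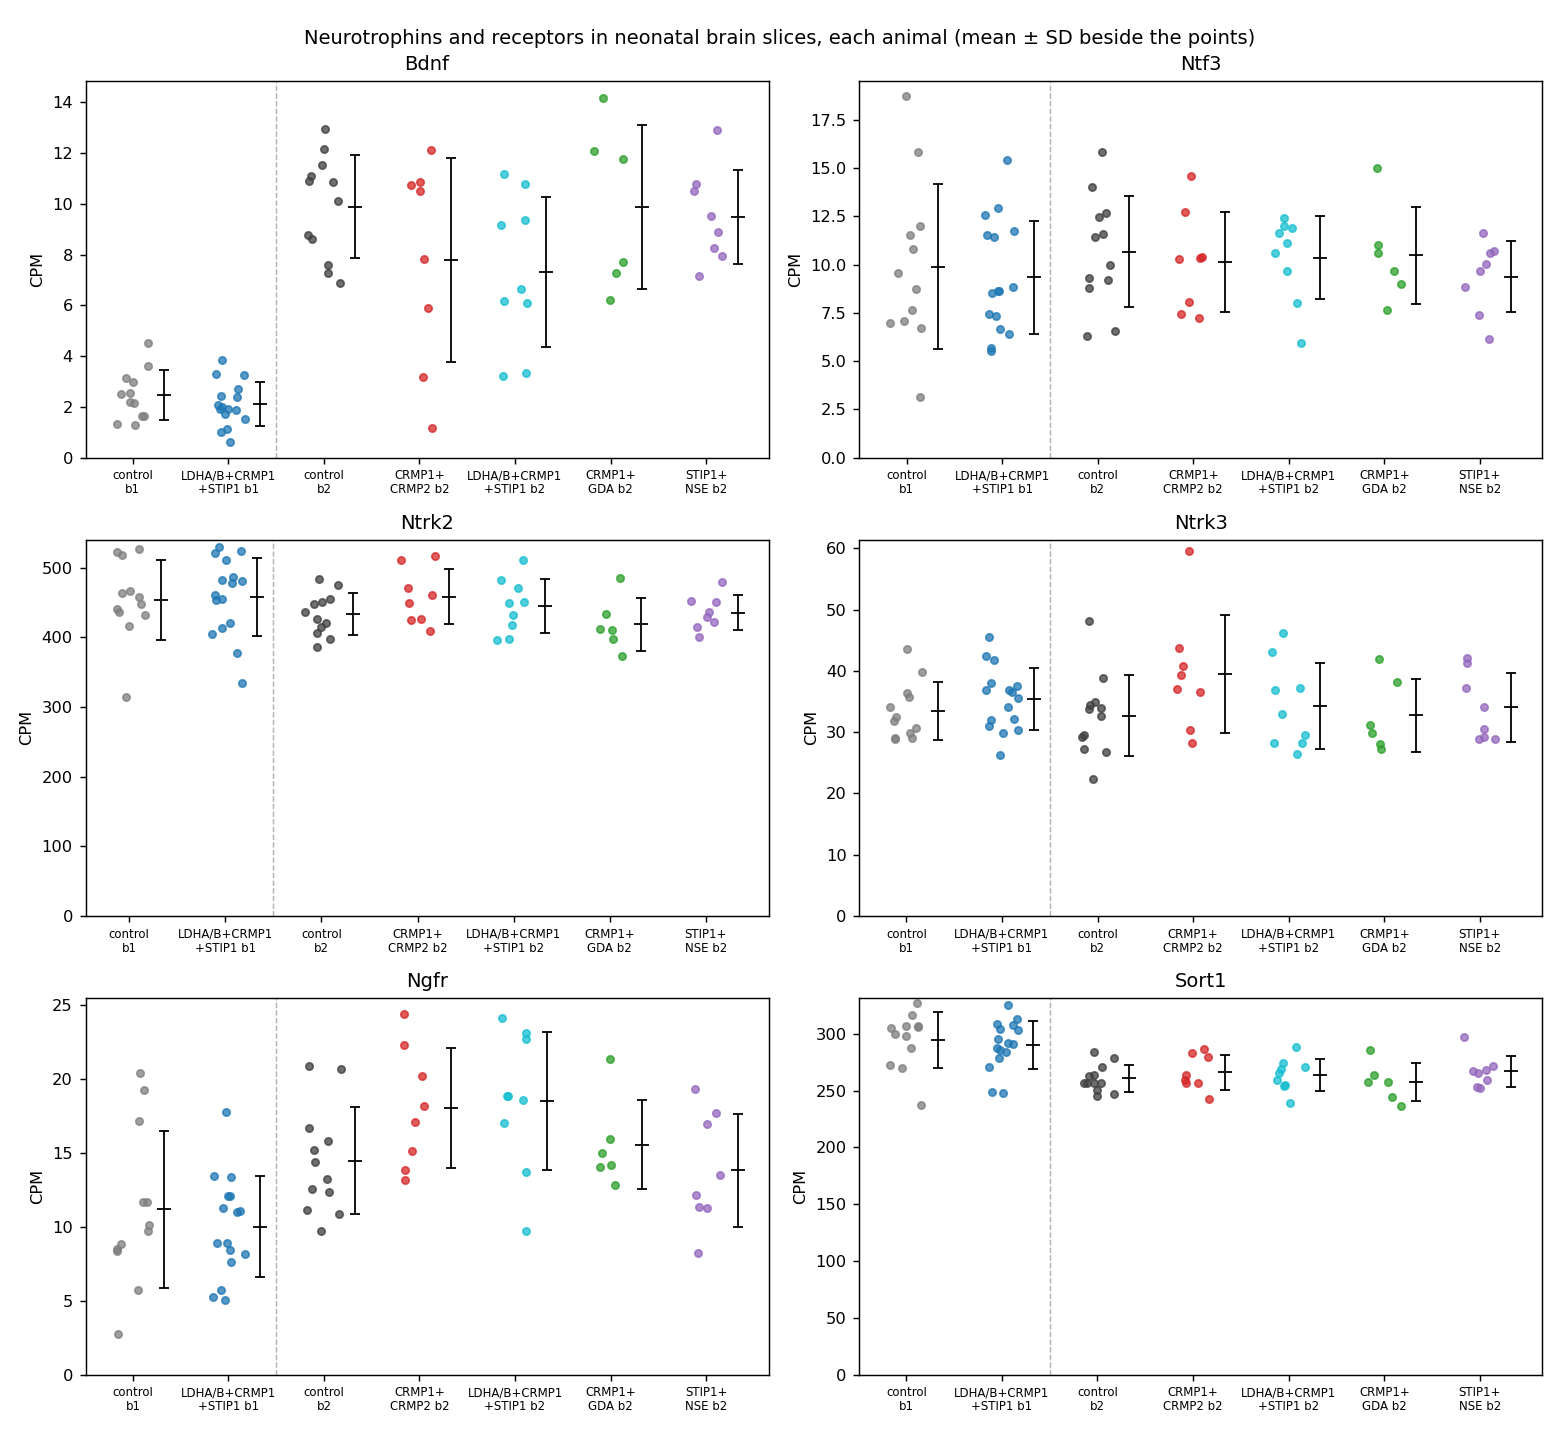
Levels of the 6 genes in CPM (vertical axes) in each animal, by exposure pattern and batch (horizontal axis, b1 and b2 are batches 1 and 2), with the mean and SD beside the points. Bdnf lies at 0.612 to 4.54 CPM in batch 1 and mostly above that in batch 2, while the groups overlap for the other 5 genes.

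Bdnf (chr3, 96165042 to 96215619 in rn7, plus strand) differed more between the batches than under any exposure. Its level in saline controls of batch 1 was 1.30 CPM at the lowest, 2.34 at the median and 4.54 at the highest (2.47 ± 0.977, mean ± SD, n = 12). In saline controls of batch 2 it was 6.88 at the lowest, 10.5 at the median and 12.9 at the highest (9.89 ± 2.02, n = 12). The control groups did not overlap, and all 12 controls of batch 2 lay above all 12 of batch 1. The log2 fold change of batch 2 over batch 1, with sex as a covariate, was 2.01 (SE 0.18, adjusted p = 3.49e-09, edgeR quasi-likelihood test), a 4.03-fold difference.

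Of all genes tested in this control comparison, 41.5% were called at FDR < 0.1, and 2 of the 6 neurotrophin genes were among them. The other was Sort1, which was lower in batch 2 (-0.17 on the log2 scale, SE 0.043, adjusted p = 0.00298). Sort1 in controls was at 294 ± 24.5 CPM in batch 1 and 261 ± 12.1 CPM in batch 2, and all 12 controls of batch 2 lay inside the range of batch 1 and below its median. Ngfr was not called in controls (log2 fold change 0.39, SE 0.21, adjusted p = 0.161). Without the control litter IgG2 that fold change was 0.55 with an adjusted p of 0.0829.

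The batch comparison was repeated in LDHA/B+CRMP1+STIP1 animals, which share no animal with the controls. This was added after the control values had been seen. There 41.4% of all genes and 3 of the 6 neurotrophin genes were called. Bdnf was higher in batch 2 by 1.89 on the log2 scale (SE 0.23, adjusted p = 1.31e-06), and 7 of 9 animals lay above all 16 of batch 1. Ngfr was higher by 0.91 (SE 0.17, adjusted p = 0.000249), and 6 of 9 animals lay above all of batch 1. Sort1 was lower (log2 fold change -0.13, SE 0.043, adjusted p = 0.0172).

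The Bdnf level varied with several markers of tissue composition. Within batch 2, Bdnf correlated with the thalamus markers at r = 0.85 and rho = 0.81 over 43 animals, and at r = 0.79 without the 2 animals farthest from the median. Within batch 1 the values were r = 0.42, rho = 0.42 and r = 0.34 over 28 animals. With the cortical and hippocampal markers it correlated at r = -0.82 in batch 2 and r = -0.49 in batch 1. In batch 1 its strongest correlations were with other lists, basal forebrain cholinergic neurons (0.65, and 0.24 in batch 2), sensory ganglia and Schwann cells (0.64 and 0.35) and radial glia and astrocytes (0.63 and 0.72). These are descriptions over animals that share litters, and each pair of measures comes from the same library. The thalamus markers were higher in batch 2 controls by a ratio of 4.91, with 9 of 9 called, and the controls of the batches did not overlap; of the 9 cortical and hippocampal markers 3 were higher and 6 lower. The control ratio of batch 2 over batch 1 was 36.1 for the choroid plexus sum, with all 12 above batch 1, 2.92 for hypothalamus and 0.308 for striatum. With the thalamus level as a further covariate, the log2 fold change of Bdnf between batches was -0.22 with an SE of 0.60, and 1 gene of all was called. The batch and the composition cannot be told apart in the controls.

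**Figure D2:**
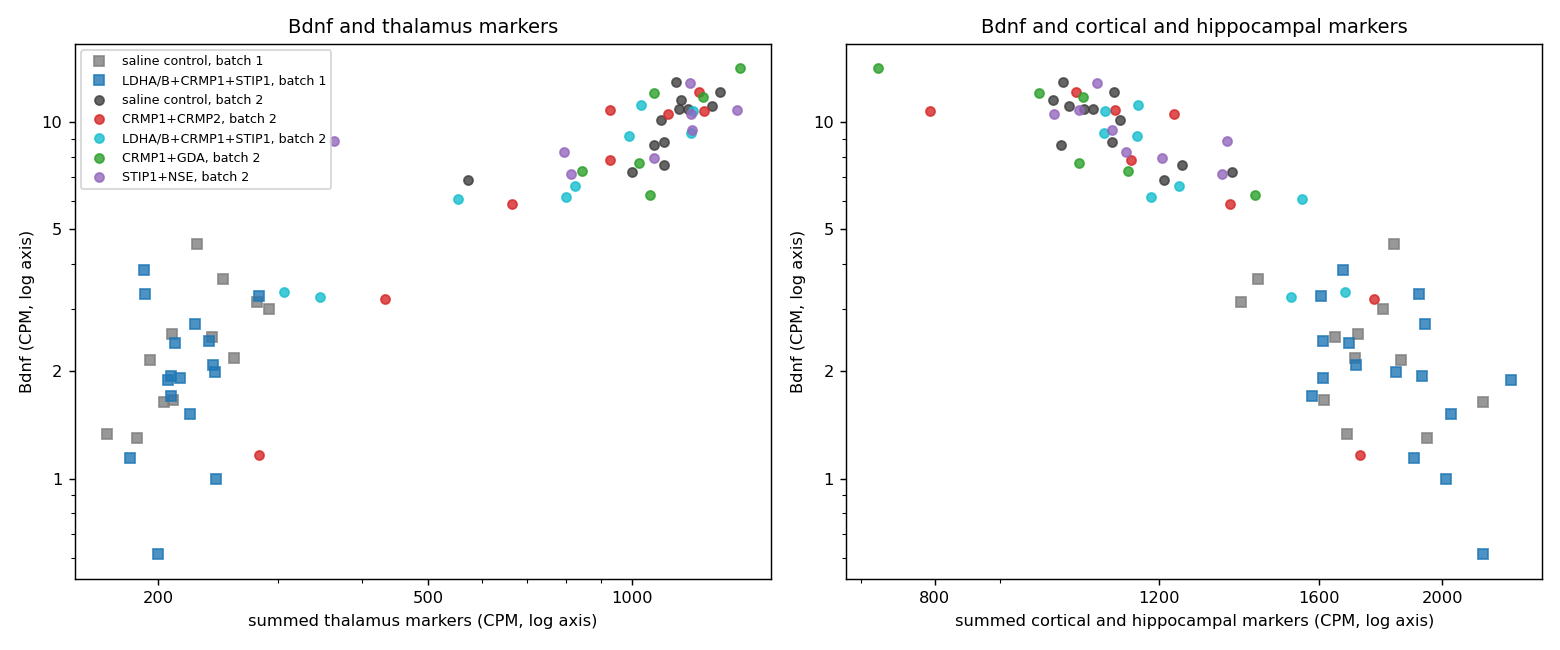
Bdnf in CPM (vertical axes) against the summed CPM of thalamus markers (left) and of cortical and hippocampal markers (right), on log axes. There is 1 point per animal, with squares for batch 1 and circles for batch 2. Most animals of batch 2 with few thalamus markers have low Bdnf, down to 1.16 CPM in a CRMP1+CRMP2 animal. An exception is a STIP1+NSE animal with a thalamus sum of 363 CPM and Bdnf at 8.88 CPM.

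Among exposed animals of batch 2, Bdnf reached lower values in CRMP1+CRMP2 and LDHA/B+CRMP1+STIP1 than in controls, without passing the test. In CRMP1+CRMP2 it was 1.16 CPM at the lowest, 9.17 at the median and 12.1 at the highest, and 3 of 8 animals lay below all 12 controls of the batch. The lowest Bdnf of the batch, 1.16 CPM, was in the animal with the lowest thalamus level, 282 CPM. The next lowest was in the same pattern, at 3.19 CPM, in an animal with the highest cortical and hippocampal level of batch 2. In LDHA/B+CRMP1+STIP1 animals of batch 2 Bdnf was 3.22 at the lowest, 6.64 at the median and 11.2 at the highest, and 5 of 9 lay below all controls of the batch. CRMP1+GDA ranged from 6.23 to 14.2 CPM and STIP1+NSE from 7.16 to 12.9 CPM, both overlapping the controls.

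Ntf3 (chr4, 158914984 to 158984453, minus strand) had similar medians in the 7 groups of pattern and batch, from 8.64 to 11.1 CPM. Its lowest value, 3.15 CPM, and its highest, 18.7 CPM, were both in saline controls of batch 1. In saline controls the mean was 9.90 ± 4.26 CPM in batch 1 and 10.7 ± 2.87 CPM in batch 2. Its log2 fold change between the batches in controls was 0.11 (SE 0.21, adjusted p = 0.734). Ntf3 correlated with the cortical and hippocampal markers at r = 0.52 in batch 1 and 0.25 in batch 2, and with the striatum markers at r = -0.61 and -0.17. In batch 1 its strongest correlations were with sensory ganglia and Schwann cells (-0.70, and -0.30 in batch 2) and basal forebrain cholinergic neurons (-0.65 and -0.38). GABA interneurons followed (-0.65 and -0.33).

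Ntrk2 (chr17, 5559043 to 5869136, minus strand) was at 315 CPM at the lowest, 453 at the median and 527 at the highest in batch 1 controls, and at 386, 431 and 484 CPM in batch 2 controls. Group means ranged from 419 ± 38.4 CPM in CRMP1+GDA to 459 ± 39.4 CPM in CRMP1+CRMP2. The groups overlapped throughout. Between the batches its log2 fold change in controls was -0.061 (SE 0.060, adjusted p = 0.464).

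Ntrk3 (chr1, 132132851 to 132503286, minus strand) was the single gene of the 6 that passed the test under an exposure. In saline controls of batch 2 it was 22.3 CPM at the lowest, 33.2 at the median and 48.1 at the highest. In CRMP1+CRMP2 it was 28.2 at the lowest, 38.2 at the median and 59.6 at the highest. The groups overlapped, with 1 of 8 exposed animals above all batch 2 controls and 6 above their median. By litter, the CRMP1+CRMP2 animals were at 36.5 and 39.3, at 59.6 and 37.1, at 43.7 and 40.85, and at 30.4 and 28.2 CPM. The value of 59.6 CPM was the highest of all 71 animals, and its littermate was at 37.1 CPM.

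Against all 24 controls, with 1 surrogate variable, Ntrk3 rose in CRMP1+CRMP2 by 0.29 on the log2 scale (SE 0.11, adjusted p = 0.0930, edgeR quasi-likelihood test). It was 1 of 6 neurotrophin genes called there, against 11.4% of all genes. Without the animal at 59.6 CPM the log2 fold change was 0.17 with an adjusted p of 0.459, and without its litter it was 0.17 with an adjusted p of 0.627. Against controls of its own batch alone it was 0.28 with an adjusted p of 0.248. In CRMP1+CRMP2, 6 of 6 tested pineal gland markers and 7 of 8 choroid plexus markers were also called higher against all 24 controls. Of the 7 pineal markers in the list, 2 passed the general filter of 1 CPM in 8 or more samples. The pattern comparisons kept genes over 1 CPM in at least 2 samples, so a few animals could bring a pineal marker into the test. The pineal count therefore depends on that filter. The choroid plexus sum was 195 to 3333 CPM in CRMP1+CRMP2 and 138 to 2865 CPM in batch 2 controls, which overlapped. In the controls of batch 1, which are among the 24, it was 4.38 to 113 CPM. The pineal sum had a median of 5.66 CPM and a maximum of 263 CPM in CRMP1+CRMP2, against a maximum of 6.68 CPM in batch 2 controls. In batch 2, Ntrk3 correlated with the pineal sum at r = 0.17 and with the choroid plexus sum at r = -0.39. Its strongest correlations there were with radial glia and astrocytes (-0.59), GABA interneurons (-0.55), hypothalamus (-0.51), striatum (-0.49) and endothelium (-0.43). The GABA interneuron sum was 469 ± 108 CPM in CRMP1+CRMP2 and 550.1 ± 57.7 CPM in batch 2 controls, with 3 of 8 markers called lower. The part of these tissues in the Ntrk3 result was not tested.

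Ngfr (chr10, 80515296 to 80533518, minus strand) had a higher mean than batch 2 controls in 3 of the 4 patterns of that batch, without passing the test. Saline controls of batch 2 were at 9.70 CPM at the lowest, 13.8 at the median and 20.9 at the highest. CRMP1+CRMP2 animals were at 13.2, 17.6 and 24.4 CPM and LDHA/B+CRMP1+STIP1 animals of batch 2 at 9.72, 18.9 and 24.2 CPM. Of these, 2 of 8 and 3 of 9 lay above all batch 2 controls, and the groups overlapped. The mean was 14.5 ± 3.62 CPM in batch 2 controls, 15.6 ± 3.03 CPM in CRMP1+GDA and 13.8 ± 3.81 CPM in STIP1+NSE. Against controls of batch 2 alone the log2 fold change was 0.32 in CRMP1+CRMP2 (unadjusted p = 0.040, adjusted p = 0.233) and 0.36 in LDHA/B+CRMP1+STIP1 (unadjusted p = 0.0218, adjusted p = 0.869). In batch 1 LDHA/B+CRMP1+STIP1 it was -0.15. The difference between the batches in this effect was 0.52 (SE 0.28, unadjusted p = 0.0719) by an interaction term. Of all genes 0.0401% were called in that interaction, and 0 of the 6, with 0 at an unadjusted p under 0.05 and 0 by DESeq2.

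Ngfr moved with markers of several tissues, among them the meninges in both batches. Its correlation with the summed markers of meninges and fibroblasts was r = 0.60 in batch 1 and 0.57 in batch 2 (rho = 0.44 and 0.59). Without the 2 animals farthest from the median of these markers, r was 0.60 and 0.44. The correlation was 0.65 and 0.13 with basal forebrain cholinergic neurons, 0.53 and 0.40 with microglia, and 0.39 and 0.56 with endothelium. With the cortical and hippocampal markers it was r = -0.71 in batch 1 and 0.24 in batch 2. The meninges sum was 114 to 765 CPM in batch 2 controls, 230 to 1338 CPM in CRMP1+CRMP2 and 180 to 840 CPM in LDHA/B+CRMP1+STIP1 of batch 2, and 0 of its 8 genes were called in CRMP1+CRMP2. The animal with the highest Ngfr, 24.4 CPM, also had the highest meninges sum, 1338 CPM. The part of meningeal or other tissue in the Ngfr level was not tested.

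**Figure D3:**
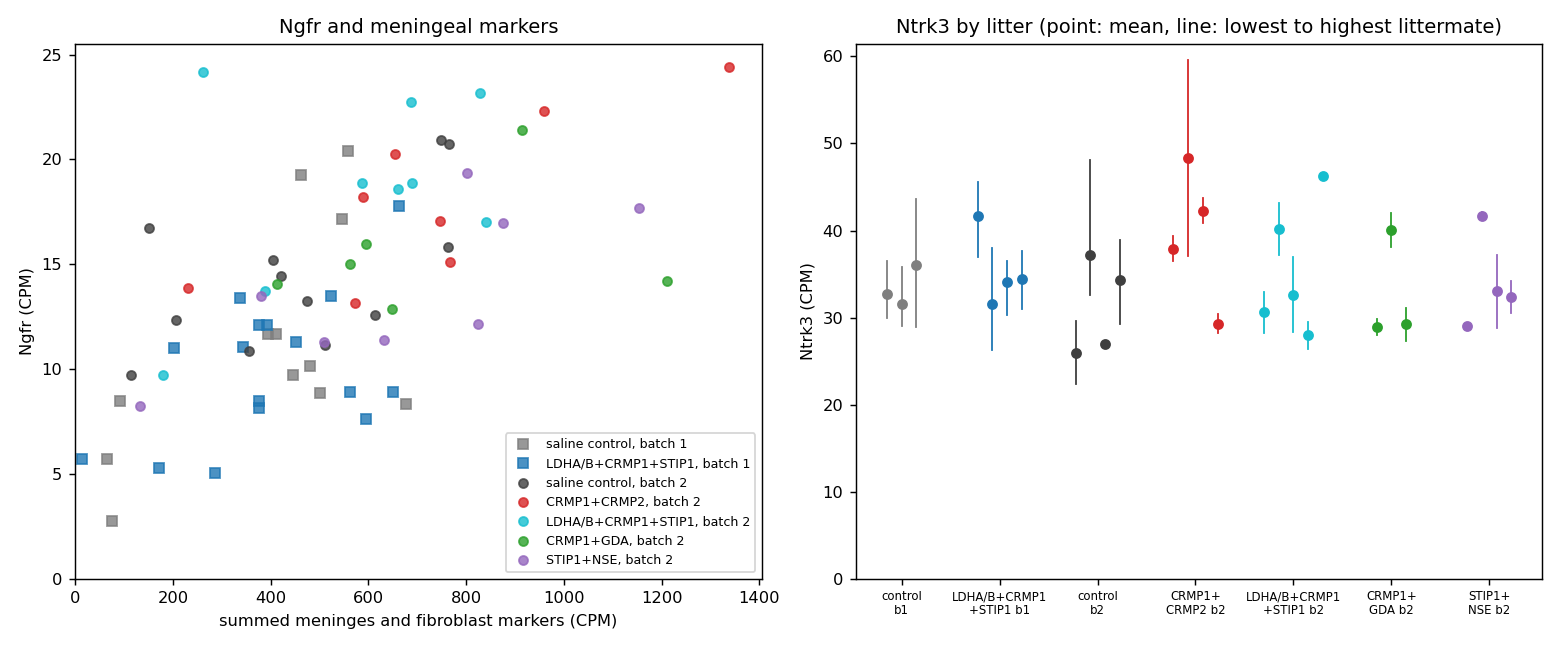
Left, Ngfr in CPM (vertical axis) against the summed CPM of meninges and fibroblast markers (horizontal axis). Each point is an animal, with squares for batch 1 and circles for batch 2. Right, Ntrk3 in CPM (vertical axis) by pattern and batch (horizontal axis, b1 and b2 are batches 1 and 2). Each point there is the mean of a litter, with a line from the lowest to the highest littermate. The CRMP1+CRMP2 litters include the widest Ntrk3 spread, from 37.1 to 59.6 CPM.

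Sort1 (chr2, 195924362 to 196002354, plus strand) varied least. In batch 2 its group means ranged from 258 ± 16.9 CPM in CRMP1+GDA to 267 ± 14.1 CPM in STIP1+NSE, all overlapping the controls of the batch at 245 to 284 CPM. In batch 1 the controls were at 294 ± 24.5 CPM and the LDHA/B+CRMP1+STIP1 animals at 290 ± 21.4 CPM. Its correlation with the cortical and hippocampal markers was r = 0.66 in batch 1 and 0.43 in batch 2. Other lists were of similar size in 1 batch, striatum (-0.61 in batch 1 and -0.18 in batch 2) and thalamus (0.038 and -0.45).

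Exposure as a whole was compared as 47 exposed animals against 24 controls with 1 surrogate variable. None of the 6 genes was called, and 0.0321% of all genes were. By edgeR 0 of the 6 had an unadjusted p under 0.05, and 0 were called by DESeq2. On the log2 scale Bdnf differed from controls by -0.19 (SE 0.11, adjusted p = 0.530) and Ntrk3 by 0.11 (SE 0.064, adjusted p = 0.552). The other 4 lay between -0.056 (Ntf3) and 0.090 (Ngfr). The surrogate variable itself correlated with batch at 0.915 and with log2 Bdnf at 0.926 in absolute value, so the Bdnf estimate was made beside a covariate that tracks its own level.

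Each pattern was also compared with all 24 controls. These 4 comparisons share their controls, so their values are given side by side. In CRMP1+CRMP2, Ngfr had a log2 fold change of 0.39 (SE 0.19, unadjusted p = 0.0503, adjusted p = 0.206) and Bdnf of -0.22 (SE 0.17). In LDHA/B+CRMP1+STIP1, 0.0157% of all genes and 0 of the 6 were called, and Bdnf was at -0.24 (SE 0.13, adjusted p = 0.728). In CRMP1+GDA, 0.0% of genes and 0 of the 6 were called, with fold changes from -0.17 (Bdnf) to 0.11 (Ntf3). In STIP1+NSE, 0.0474% of genes and 0 of the 6 were called, with fold changes from -0.20 (Ngfr) to 0.098 (Ntrk3). In the last 3 comparisons 0 of the 6 had an unadjusted p under 0.05 and 0 were called by DESeq2.

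**Figure D4:**
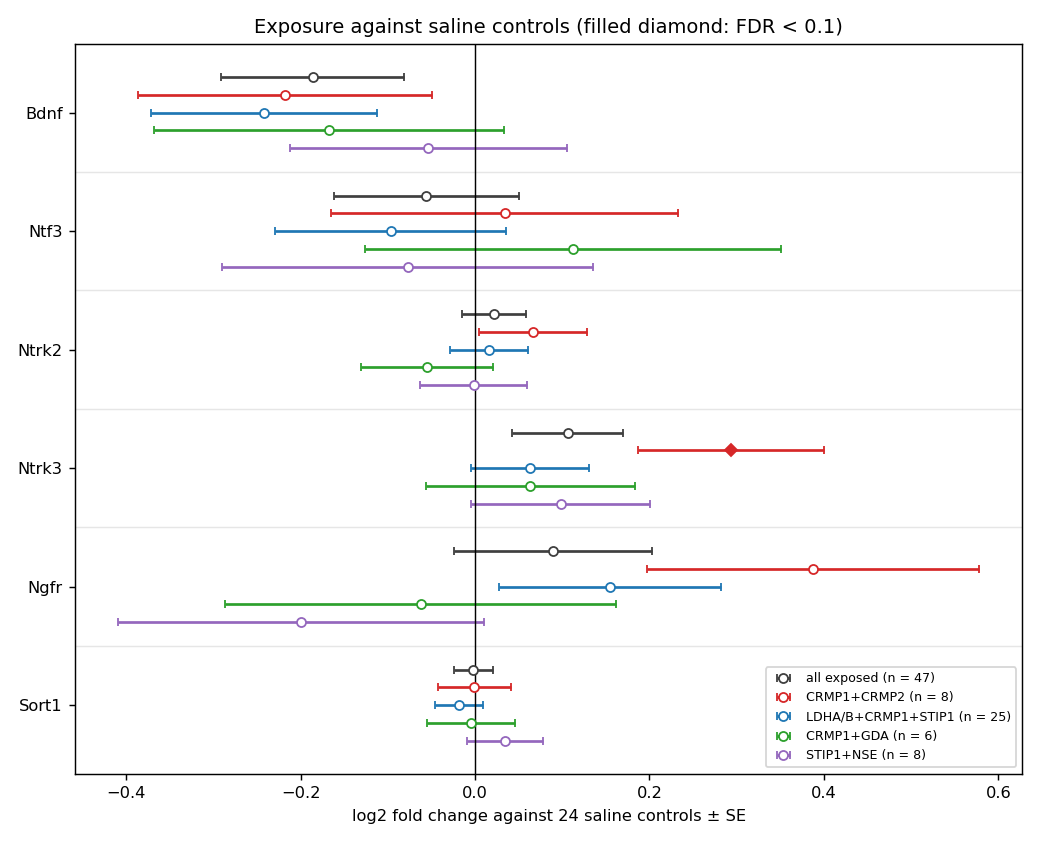
Log2 fold changes of the 6 genes (rows) against the saline controls with their standard errors (horizontal axis). Colours mark all exposed animals and each pattern, with a filled diamond where the adjusted p was under 0.1. The batch difference of Bdnf, 2.01, is not drawn and exceeds each exposure value of the 6 genes in size.

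Whether the 4 patterns differed from each other was tested in batch 2, where all are present. Of all genes 0.0% were called and 0 of the 6, with 0 at an unadjusted p under 0.05 and 0 by DESeq2. Ngfr came nearest (unadjusted p = 0.0696, adjusted p = 0.662). In single pairs of patterns, 3 differences had an unadjusted p under 0.05 and none passed the adjustment over all genes. Ngfr in LDHA/B+CRMP1+STIP1 exceeded that in STIP1+NSE by 0.42 on the log2 scale (SE 0.17, unadjusted p = 0.0156, adjusted p = 0.984), and in CRMP1+CRMP2 by 0.38 (SE 0.17, unadjusted p = 0.0337, adjusted p = 0.715). Ntrk2 in CRMP1+CRMP2 exceeded that in CRMP1+GDA by 0.14 (SE 0.064, unadjusted p = 0.0391, adjusted p = 0.333).

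Since the exposure was given to the dam, litter means were compared within batches by exact two-sided permutation tests. Of 30 tests over 6 genes and 5 comparisons, 0 had an unadjusted p under 0.05, where the smallest p the design allows is 0.0286, or 0.00794 for 5 against 4 litters. The lowest was Ntrk3 in CRMP1+CRMP2, with a difference of 0.33 in mean log2 CPM and 3 of 4 litters above all control litters (exact p = 0.143). Ngfr in LDHA/B+CRMP1+STIP1 of batch 2 differed by 0.27 (exact p = 0.175) and Bdnf by -0.45 (exact p = 0.190). With library sizes not scaled by TMM, the lowest was instead Ntrk2 in CRMP1+CRMP2 (exact p = 0.0571). Ntrk3 was then at an exact p of 0.114. Littermates resembled each other most for Ntrk3, whose intraclass correlation was 0.51, against 0.22 for Bdnf, 0.21 for Ntrk2, 0.14 for Sort1, 0.11 for Ngfr and -0.030 for Ntf3. P-values over animals count littermates as independent.

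Males and females were compared across the 7 groups of pattern and batch. Of all genes 0.0641% were called and 0 of the 6, with 0 at an unadjusted p under 0.05 by edgeR and 0 called by DESeq2. Ngfr had a log2 fold change of males over females of 0.21 (unadjusted p = 0.0551). Its mean was 14.8 ± 4.91 CPM in 35 males and 13.0 ± 5.00 CPM in 36 females. For Bdnf the value was 0.16, and in batch 1 alone 0.48 (unadjusted p = 0.030, adjusted p = 0.705).

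The genes most like each of the 6 were taken by Pearson's r of log2 CPM over 71 animals after subtracting batch means, as a description. Bdnf was most like Dpp6 (0.86), Slc17a6 (0.85) and Nrn1 (0.84). Slc17a6, a vesicular glutamate transporter, is also in the thalamus list, and differed between control batches by 2.09 on the log2 scale. Ntf3 was most like Neurod6 (0.67), Fezf2 (0.64) and Etv5 (0.63), of which Neurod6 and Fezf2 encode factors of cortical projection neurons. Ntrk2 was most like Myo5a (0.81), Gnaq (0.80) and Kcnma1 (0.80), and Ntrk3 like Dchs1 (0.89), Slc4a7 (0.89) and Tnik (0.88). Ngfr was most like Gjb2 (0.67), Ecrg4 (0.67) and the haemoglobin gene Hba-a1 (0.65). Sort1 was most like Prkce (0.77), Adcy1 (0.77) and Kif21b (0.76). Among the 6, Ntrk2 and Sort1 were closest (r = 0.70), while Bdnf and Ngfr correlated at 0.52 in batch 1 and -0.48 in batch 2.

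The wider pathway was counted in 7 lists of 125 genes, of which 113 were tested. Under exposure as a whole 1 was called, Creb1 (adjusted p = 0.0999), which was also the single pathway gene called in LDHA/B+CRMP1+STIP1 (log2 fold change 0.28, SE 0.054, adjusted p = 0.0156). In both comparisons 0 of all genes were called with the litter as a random effect or with counts summed per litter, so neither Creb1 call held there. In CRMP1+CRMP2, 16 of the 113 were called, 7 higher and 9 lower, beside 11.4% of all genes. With the litter as a random effect 33 of all genes were called there, and with litter sums 0. By list these were 0 of 7 other neurotrophin and receptor genes, 3 of 14 genes of precursor processing, 2 of 24 Trk adaptors, 5 of 24 Ras-MAPK and PI3K-Akt kinases, 2 of 21 genes of p75 signalling, 3 of 10 genes of BDNF transport and transcription and 1 of 13 BDNF-responsive genes. List medians ran from -0.14 to 0.068, against 0.0073 over all genes. Among those called, Creb1 rose by 0.36, the adaptor Shc1 by 0.33, the exchange factor Sos1 by 0.22 and the CREB coactivator Crtc1 by 0.17. The BDNF-responsive Vgf fell by 0.33, the prohormone-cleaving Cpe by 0.21 and the small GTPase Hras by 0.17.

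Between the control batches, 56 of the 113 pathway genes were called, 19 higher and 37 lower in batch 2, beside 41.5% of all genes (2666 higher and 2509 lower). These included 5 of 7 other neurotrophin and receptor genes, 6 of 14 of precursor processing, 8 of 24 Trk adaptors, 13 of 24 kinases, 11 of 21 of p75 signalling, 5 of 10 of BDNF transport and transcription and 8 of 13 BDNF-responsive genes. Of the genes with the smallest p, Nrn1 was higher by 1.94, Vgf by 1.19, the sortilin relative Sorcs2 by 0.70 and the convertase Pcsk5 by 0.69. The sorting receptor Sorl1 (-0.95) and the p75 relative Nradd (-0.72) were lower. In the comparisons of CRMP1+GDA, STIP1+NSE, the 4 patterns, the interaction and sex, 0 pathway genes were called, with 6, 5, 10, 1 and 8 at an unadjusted p under 0.05, where 3.65%, 3.19%, 7.12%, 2.99% and 4.66% of all genes were.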

How the data were processed

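RNA from 71 neonatal brain slices was sequenced. The authors aligned reads to rn7 with STAR 2.5.4b and counted them per gene with featureCounts (the submitters' processing notes); the deposited table holds raw counts, with each gene's exon length. Strand and multi-mapping settings are not given in the sources used here. Of counts from 1 to 9, 74.5% were even, so fragments may have been counted as 2 reads, and depths and counts per CPM would then overstate the fragments sequenced. The labels give exposure, litter and sex, and the title series gives the batch.

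Counts were fitted in R 4.3.3 with edgeR 4.0.16 (TMM, robust quasi-likelihood), Benjamini-Hochberg adjusted over all genes tested, FDR < 0.1. The general, batch, interaction, pattern-difference and sex fits kept the 12477 genes that reached 1 CPM in 8 or more samples, and each pattern comparison kept genes over 1 CPM in at least 2 samples. Exposure fits had 1 surrogate variable (sva 3.50.0); the others used sex, batch or group terms. Litter means (log2 CPM with 0.5 added) were compared by exact permutation. Alternatives included DESeq2 1.42.0 and the litter as a random effect (limma 3.58.1). Scripts were tested on simulated data. The 6 genes and all lists were chosen with earlier results of these data known. Pathway genes are named if called, up to 12 with the smallest p; 3 most similar genes are given for each of the 6. Descriptions used Python 3.11.15.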

Additional observations from a re-analysis of the deposited data

Results flagged for a closer look

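In 24 groups of 4 to 10 animals, the gap of the highest or lowest animal to its neighbour was compared with Dixon's critical value, and both values below passed it, which chance does in about 1 in 20 groups. Ngfr in CRMP1+GDA had its highest animal, replicate 6, at 21.4 CPM with the nearest at 15.96 CPM, a gap of 0.635 of the range. Sort1 in STIP1+NSE had its highest animal, replicate 2, at 296.8 CPM with the nearest at 271.7 CPM, a gap of 0.566 of the range.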

How the results depend on the processing

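The count of neurotrophin genes called was unchanged under every alternative run for exposure as a whole, LDHA/B+CRMP1+STIP1, CRMP1+GDA, STIP1+NSE, the 4 patterns, the interaction, sex and the litter tests. In CRMP1+CRMP2 the 1 call, Ntrk3, became 0 with no expression filter (adjusted p = 0.107), with the litter as a random effect (0.240), with counts summed per litter (0.397), with batch and sex as covariates (0.192), with thalamus markers added (0.370) and in batch 2 alone (0.248), and leaving out animals or litters gave 0 to 1. All genes called there numbered 1445, and 115 in batch 2 alone, 33 with the litter as a random effect, 0 with litter sums, 491 with batch and sex, 34 with thalamus markers added, 212 without replicate 3, 44 without litter 9_6 and 2980 without litter 9_16. DESeq2 called 16 genes against 4 by edgeR under exposure as a whole, 15 against 2 in LDHA/B+CRMP1+STIP1, 3 against 6 in STIP1+NSE and 1 against 0 among the 4 patterns. Between batches the 2 calls became 0 with the thalamus covariate and 3 in LDHA/B+CRMP1+STIP1 animals; leaving out litters gave 2 to 3. No paired analysis was possible because, between exposure groups, replicate numbers were given in accession order and pair no animals. Between the sexes, the litter as a fixed term gave 0 of the 6 called, with Sort1 at -0.056 (unadjusted p = 0.0183, adjusted p = 0.539). The cause of these changes was not tested. The thalamus covariate, the batch comparison in LDHA/B+CRMP1+STIP1 animals and leaving out single CRMP1+CRMP2 animals were chosen after seeing the data.

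Where a log2 fold change changed sign, the value after the change was at most 0.218 in size and was not called. For Ntf3 under exposure as a whole they were 0.0038 (litter random effect) and 0.0021 (2 principal components), and for Sort1 0.0085, 0.0096 (litter sums), 0.0036 (batch and sex), 0.023 (batch 2 alone) and 0.0024 (components). In CRMP1+CRMP2, Bdnf was 0.047 with thalamus markers, Ntf3 -0.059 (litter sums), -0.055 (batch and sex), -0.093 (thalamus) and -0.043 (batch 2), and Sort1 0.00044 (DESeq2), 0.00049 (RLE), 0.012 (litter random effect), 0.0099 (litter sums), 0.036 (batch and sex), 0.021 (thalamus) and 0.036 (batch 2). In LDHA/B+CRMP1+STIP1, Ngfr was -0.15 in batch 1 and Sort1 0.016 in batch 2. In CRMP1+GDA, Ngfr was 0.16, 0.16 and 0.12 and Ntrk3 -0.0045, -0.0055 and -0.0026 with batch and sex, with thalamus and in batch 2, Ntf3 -0.077 (litter sums), -0.048, -0.052 and -0.056, and Sort1 0.016 and 0.0029 (litter random effect, litter sums). In STIP1+NSE, Bdnf was 0.047 (thalamus), Ntf3 0.039 (litter random effect) and Ntrk2 7.0e-05 (DESeq2), 6.6e-05 (RLE), 0.023, 0.017, 0.0058, 0.029 and 0.012. In the interaction, Ntf3 was -0.067 and -0.0074 and Ntrk3 0.053 and 0.13 by litter. Between batches with thalamus markers Bdnf was -0.22 and Ntf3 -0.13. For Bdnf this was a large change, from a called 2.01 in the main fit, and batch and thalamus level cannot be told apart there. For sex in batch 2 alone Bdnf was -0.016 and Ntrk2 0.0047.

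Leaving out an animal or litter changed signs in CRMP1+CRMP2 for Ntf3 (-0.055 to 0.13) and Sort1 (-0.0089 to 0.034), in LDHA/B+CRMP1+STIP1 for Sort1 (-0.027 to 0.00075), in CRMP1+GDA for Ngfr (-0.11 to 0.035), Ntf3 (-0.052 to 0.18), Ntrk3 (-0.12 to 0.15) and Sort1 (-0.046 to 0.030), in STIP1+NSE for Bdnf (-0.13 to 0.0061), Ntrk2 (-0.022 to 0.015) and Ntrk3 (-0.011 to 0.18), and between batches for Ntrk3 (-0.15 to 0.024).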
